A study of Homo sapiens with 19 samples.

Results

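MYCN-high SHEP TET21N cells collected 14 days after doxorubicin was washed out were set against untreated MYCN-high cells, to measure how far gene expression had returned after the drug. SHEP TET21N is an established human neuroblastoma line whose MYCN transgene is turned down by doxycycline. The comparison was chosen by the libraries' labels and holds 4 of the 19 RNA sequencing libraries of the series, replicates B and C of each group. The day 14 cells had received 0.1 µg/ml doxorubicin for 72 h and then 14 days of medium without the drug. The untreated cells had received none. Neither group was grown with doxycycline, so the transgene was on in both. Used beside them were MYCN-high cells at the end of the 72 h, at day 3 and at day 8 after washout, and MYCN-low cells, grown with doxycycline, either untreated or after the same 72 h of drug. Each of these groups also held replicates B and C. The labels name biological duplicates without saying what the replicates share. The untreated group is labelled 0 h and no untreated group of a later time was used, so the effects of time in culture and of the drug cannot be told apart. All results come from 1 cell line.

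The anthracycline doxorubicin holds topoisomerase II on cut DNA, which leaves strand breaks. Damaged cells stabilise p53, which turns on genes such as CDKN1A (the cyclin-dependent kinase inhibitor p21), MDM2 (the ligase that degrades p53) and BTG2 (an antiproliferative factor). With the kinases inhibited, repressor complexes shut the genes of DNA replication and mitosis.

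Gene counts were 17599294 and 20507340 in the day 14 libraries B and C, against 21946649 and 22771542 in the untreated libraries B and C. Total counts over the series ran from 16547663 to 27664604. Levels are given in CPM, counts scaled to a common library total, which are not corrected for gene length, so they are compared between libraries and not between genes. Fold changes are on the log2 scale with standard errors after ±, day 14 minus untreated unless said otherwise. The MYCN transcript stood at 672 and 594 CPM at day 14, against 675 and 690.4 CPM untreated. Both groups are labelled MYCN-high and no MYCN-low level is given here, so these values do not check that label. VIM, the mesenchymal intermediate filament gene, stood at 900.0 and 799.6 CPM against 1031 and 893 CPM. PRRX1 and CDH2 were also present, while COL1A2 was at or under 0.39 CPM in all 4 libraries. PHOX2A and TH, markers of sympathetic neuroblasts, were at 0 in all 4, but not every gene of that lineage was. HAND2, a transcription factor gene of sympathetic development named after its values were seen, had 138 and 248 CPM at day 14, against 100.3 and 131 CPM untreated, without overlap, and GATA2 had 30.3 and 27.8 CPM against 31.5 and 34.0 CPM. Blood and endothelial markers PTPRC, PECAM1 and HBB were at or near 0, with the highest value 0.487 CPM for PTPRC in untreated replicate B, and EPCAM stood between 0.453 and 1.11 CPM. CD68, a macrophage marker that encodes a lysosomal membrane protein, was present at 9.66 and 5.24 CPM at day 14, against 15.0 and 11.3 CPM untreated, both lower. In bulk RNA, fewer cells expressing a gene and less RNA per cell cannot be told apart.

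Day 14 cells lay close to untreated cells across the transcriptome. No gene passed the test: 0 of 14793 tested genes (0%) had an adjusted p under 0.05 by edgeR's quasi-likelihood test with Benjamini-Hochberg adjustment, and the smallest adjusted p was 0.0529, for THSD7A. At an unadjusted p under 0.05 edgeR gave 1245 genes (8.42%), of which 617 were higher (4.17%) and 628 lower (4.25%) at day 14. The same rule of an adjusted p under 0.05 gave 5359 genes (36.2%) after 72 h of drug against untreated cells, with 2708 higher (18.3%) and 2651 lower (17.9%). Day 14 against 72 h, which uses no untreated library, gave 5260 genes (35.6%), 2559 higher (17.3%) and 2701 lower (18.3%). The number 0 depends on the tool, the model and the libraries. DESeq2's Wald test called 68 genes (0.46%), 44 higher (0.297%) and 24 lower (0.162%), while limma-voom called 0. With the replicate letter as a block edgeR called 5, TGFA and THSD7A higher and PLEC, CDH13 and MYO10 lower (MYO10 is outside the naming rule and was named after its values were seen). Without day 14 replicate B edgeR called 39 genes, 33 higher and 6 lower, and without day 14 replicate C it called 0, with 316 at an unadjusted p under 0.05. Without untreated replicate B it called 1, THSD7A, and without untreated replicate C it called 0.

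Effect sizes at day 14 were small where counts were high. Among the 10058 genes with a mean of at least 5 CPM over the 4 libraries, the median absolute log2 fold change was 0.19, against 0.50 for the same genes at 72 h. Of these genes 62 were at least 2-fold higher (0.616%) and 47 at least 2-fold lower (0.467%) at day 14. At 72 h, 864 were at least 2-fold higher (8.59%) and 1339 at least 2-fold lower (13.3%). The 5 CPM limit leaves out genes low in the day 14 and untreated libraries, also those that rose with the drug. Over all tested genes, 2426 were at least 2-fold higher and 2174 at least 2-fold lower at 72 h. At day 14 these numbers were 777 (5.25%) and 537 (3.63%). The 95% interval of the day 14 fold change lay wholly within 2-fold in either direction for 8526 of the 10058 genes (84.8%) and for 8873 of all tested genes (60%). For the rest, the interval reached past 2-fold. With ERCC scaling in place of TMM the median day 14 fold change of all genes was -1.07 and many signs turned, so every direction given here is relative to the median gene. The groups did not overlap (both day 14 libraries above, or both below, both untreated ones) in 6743 genes (45.6%), 3234 higher (21.9%) and 3509 lower (23.7%).

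**Figure D1:**
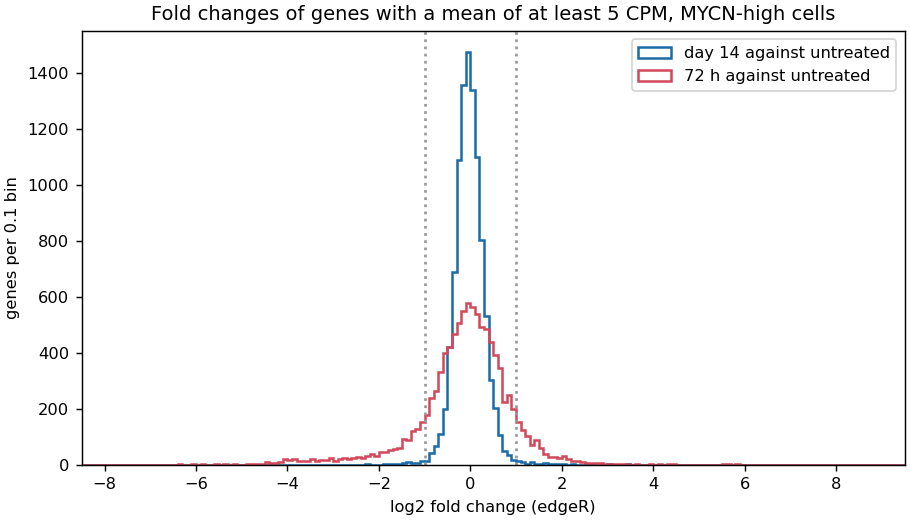
Histogram of log2 fold changes (x axis) of the 10058 genes with a mean of at least 5 CPM, as genes per 0.1 bin (y axis), for day 14 against untreated (blue) and 72 h against untreated (red) MYCN-high cells. Dotted lines mark 2-fold. The day 14 curve is narrow, with 62 genes past 2-fold higher and 47 past 2-fold lower, and the 72 h curve has long shoulders, with 864 and 1339.

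The day 14 replicates were not equally near the untreated state. Over 10234 genes, replicate B differed at least 2-fold from the untreated libraries B and C in 1.4% and 0.704% of genes, which is no more than the 1.45% by which the untreated libraries differed from each other. Replicate C differed from them in 5.37% and 2.94% of genes. From the day 8 libraries B and C, replicate C differed in 4.07% and 3.1% of genes and replicate B in 6.15% and 6.47%. From the 72 h libraries, both day 14 replicates differed in 22.4% to 25.4% of genes. The difference between the day 14 replicates themselves was 2.2%. Replicate C was the farther of the pair from untreated cells by this measure and the nearer to day 8.

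**Figure D2:**
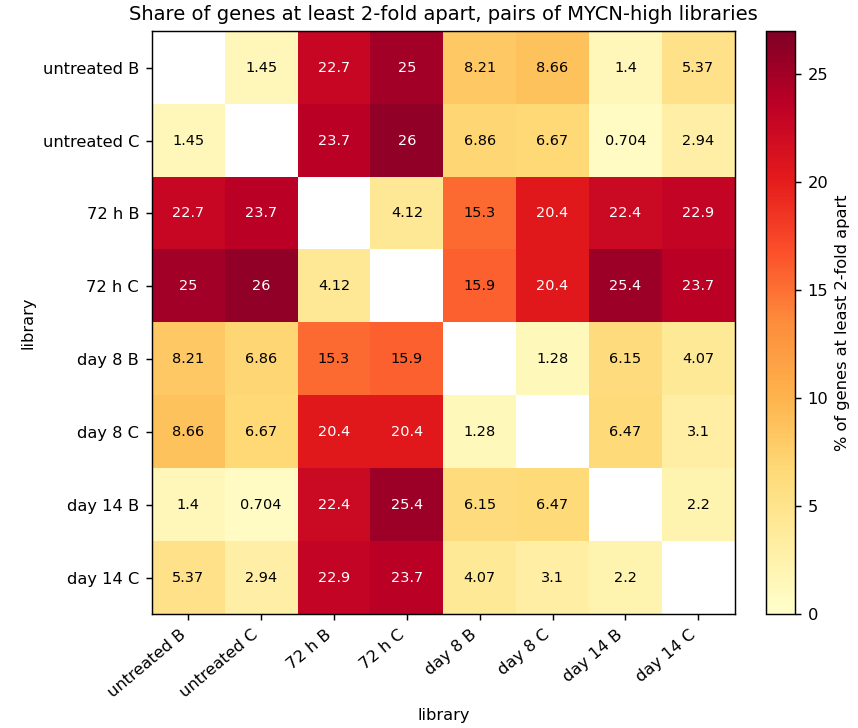
Share of 10234 genes at least 2-fold apart (number in each cell, and colour scale in percent) between pairs of MYCN-high libraries, in the order untreated, 72 h, day 8 and day 14. Day 14 replicate B lies 1.4% and 0.704% from the untreated libraries, replicate C 5.37% and 2.94%, and both lie 22.4% to 25.4% from the 72 h libraries.

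Targets of p53 fell back from their 72 h levels but most stood slightly above untreated cells. The list had 30 tested genes, of which 30 had risen at 72 h and 29 were lower at day 14 than at 72 h (edgeR, adjusted p under 0.05). All tested genes gave 18.3% in each case. At day 14 against untreated none was called. Their median log2 fold change was 0.28 (0.29 in replicate B and 0.25 in replicate C), beside -0.01 over all tested genes. Of the 30 genes 23 had a positive and 7 a negative fold change. In 16 both day 14 libraries were above both untreated ones and in 2 below, where all tested genes gave 21.9% and 23.7%. At an unadjusted p under 0.05, 6 were higher and none lower, where all tested genes gave 4.17% and 4.25%. The 72 h and day 14 comparisons share the untreated libraries, so their values stand side by side here and are not independent.

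CDKN1A had 41.6 and 30.4 CPM at day 14, against 23.5 and 22.9 CPM untreated. Both day 14 libraries were higher, a log2 difference of 0.63 ± 0.34 (95% interval -0.08 to 1.35, edgeR unadjusted p = 0.0807, adjusted p = 0.637). At 72 h it had 1193 and 1042 CPM and at day 8 158 and 61.0 CPM, and day 14 minus 72 h was -4.96 ± 0.33 (edgeR adjusted p = 7.99e-07). BTG2 had 15.0 and 13.7 CPM at day 14, against 7.56 and 5.51 CPM untreated, without overlap (1.14 ± 0.34, interval 0.42 to 1.85, edgeR adjusted p = 0.405). It was the only one of the 30 genes past 2-fold at day 14. FDXR, a mitochondrial reductase gene, had 25.5 and 27.1 CPM against 13.3 and 19.2 CPM (0.70 ± 0.26). BBC3, which encodes the pro-apoptotic protein PUMA, had 4.62 and 4.28 CPM against 2.34 and 2.78 CPM (0.80 ± 0.35). The other 3 genes of the 6, chosen after their values were seen, were EDA2R, a receptor of the tumour necrosis factor family (0.79 ± 0.27), CCNG1, which encodes cyclin G1 (0.57 ± 0.25), and TP53I3, an oxidoreductase gene (0.49 ± 0.23). In each of the 6 genes both day 14 libraries were above both untreated ones, and none passed the adjusted threshold.

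Other targets of the list varied. MDM2 had 372 and 276 CPM at day 14, against 320.1 and 286 CPM untreated, with overlapping groups (0.09 ± 0.28, interval -0.51 to 0.70). XPC, a gene of DNA damage recognition, had 60.1 and 56.9 CPM against 63.4 and 58.8 CPM, also overlapping (-0.06 ± 0.16, interval -0.41 to 0.29). TP53INP1, a stress-induced target, had 3.39 and 3.98 CPM against 4.19 and 4.07 CPM. GDF15, a secreted cytokine of the stress response, had 2.99 and 7.60 CPM against 2.97 and 2.68 CPM (0.92 ± 0.69), so that replicate B was at the untreated level and replicate C above it. The death genes BAX and FAS had differences of 0.34 ± 0.26 and 0.35 ± 0.27, both without overlap of the libraries and both with intervals that hold 0.

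**Figure D3:**
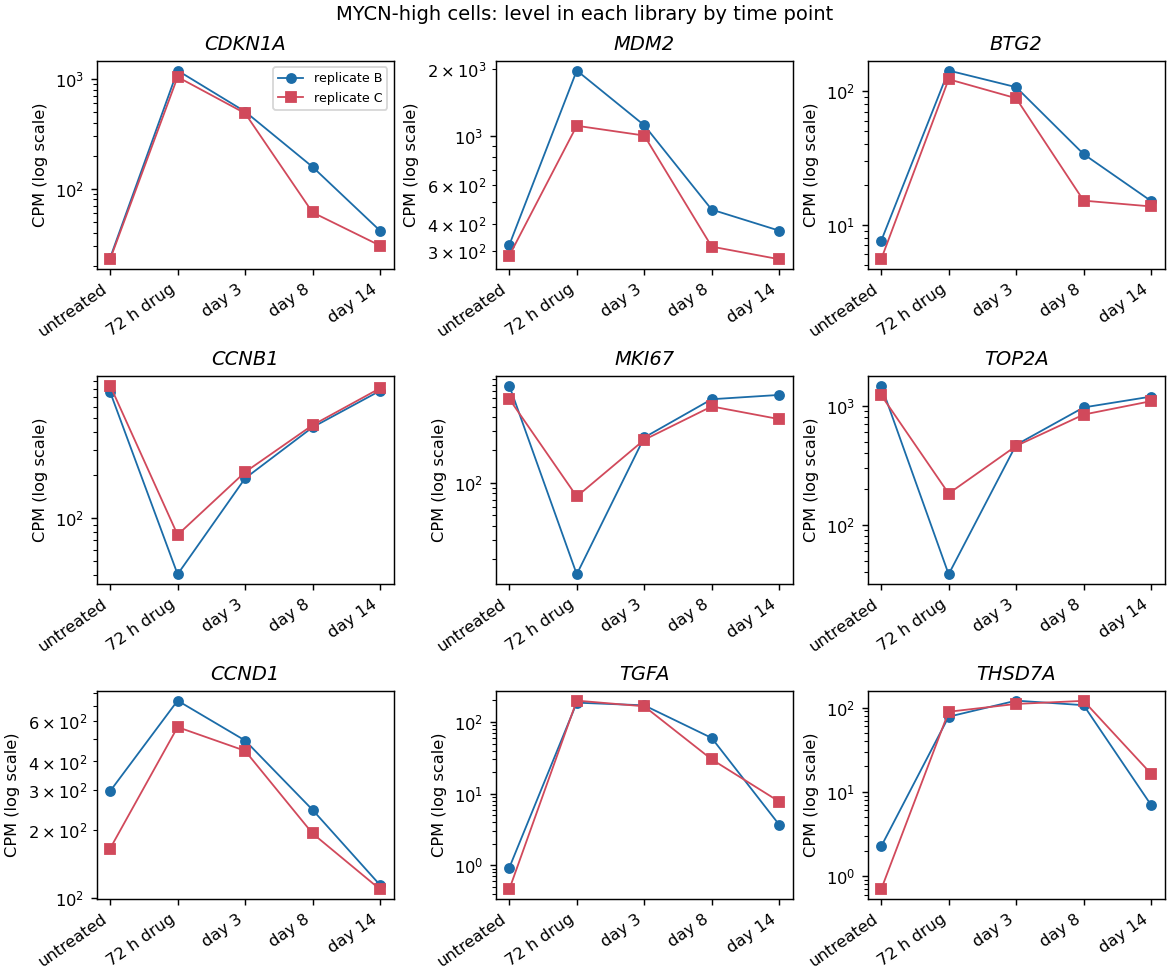
Level in each MYCN-high library (CPM, log y axis) of 9 genes by time point (x axis), untreated, at 72 h of drug and at day 3, 8 and 14 after washout, with replicate B as blue circles and C as red squares. CDKN1A ends at 41.6 and 30.4 CPM at day 14, CCNB1 at 773 and 805 CPM and CCND1 at 114 and 109.6 CPM, where the untreated libraries had 23.5 and 22.9, 758 and 840.3, and 296 and 166 CPM.

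Division genes were expressed at day 14 near the untreated level. All 44 tested genes of the G2 and mitosis list fell at 72 h, with a median of -3.94, and all 44 were higher at day 14 than at 72 h (edgeR, adjusted p under 0.05). All tested genes gave 17.9% and 17.3%. At day 14 against untreated none was called or had an unadjusted p under 0.05. The 95% interval lay within 2-fold in either direction for 16 of the 44. All tested genes gave 60%, and those at 5 CPM or more 84.8%. For the other genes of the list the interval reached past 2-fold. The median was -0.21 (-0.18 in both replicates), and 37 of 44 fold changes were negative, from -0.56 to 0.19 over the list. In 15 genes both day 14 libraries were below both untreated ones and in 2 above, where all tested genes gave 23.7% and 21.9%. CCNB1, which encodes cyclin B1, had 773 and 805 CPM at day 14, against 758 and 840.3 CPM untreated, with overlap (-0.02 ± 0.27, interval -0.58 to 0.55). TOP2A, which encodes the topoisomerase that doxorubicin traps, had 1192 and 1091 CPM against 1474 and 1226 CPM, both lower (-0.24 ± 0.45, interval -1.19 to 0.71). MKI67, the proliferation antigen gene, had 643 and 385 CPM against 784 and 591 CPM, overlapping, with replicate C lowest (-0.42 ± 0.46). At 72 h MKI67 had 14.4 and 74.7 CPM and TOP2A 38.5 and 183 CPM, a spread that also enters their standard errors. NUF2, a kinetochore gene, had 141 and 157 CPM against 164 and 142 CPM. ANLN, which encodes the cytokinesis protein anillin, had 625 and 465 CPM against 897 and 649 CPM (-0.50 ± 0.41).

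Promoters of this list are shown because the list moved together at 72 h and back. DREAM, the repressor complex of cell-cycle genes, is known to act through the cell-cycle homology region (often TTTGAA), and NF-Y through CCAAT boxes. RefSeq promoters of build GRCh38.p14, from 250 bases before to 50 after each start, were found for 36 of the 44 genes, as 43 promoters. CCAAT or its complement ATTGG was in 33 of 43 (76.7%), beside 34.6% of all 35116 promoters of the table. TTTGAA or its complement TTCAAA was in 29 of 43 (67.4%), beside 15.2%, and both motifs were in 24 (55.8%), beside 5.9%. Both strands were searched, and in the promoters printed here no match of one motif shared letters with a match of the other. Capitals mark the matches. TOP2A (chr17:40417847-40418146, minus strand) holds both motifs, CCNB1 (chr5:69166900-69167199, plus strand) CCAAT only, and NUF2 (chr1:163321704-163322003, plus strand) TTTGAA only. CDKN1A (chr6:36678464-36678763, plus strand), the p53 target given above, holds neither. Over the p53 list, CCAAT was in 19 of 36 promoters, TTTGAA in 4 and both in 0. A match is a description of letters and not a measured site.
TOP2A: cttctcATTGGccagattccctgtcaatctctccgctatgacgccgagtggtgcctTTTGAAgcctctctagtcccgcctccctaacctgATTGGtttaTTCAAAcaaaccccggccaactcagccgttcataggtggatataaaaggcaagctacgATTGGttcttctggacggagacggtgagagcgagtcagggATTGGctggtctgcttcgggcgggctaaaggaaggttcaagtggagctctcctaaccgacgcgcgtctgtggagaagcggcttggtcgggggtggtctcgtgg
CCNB1: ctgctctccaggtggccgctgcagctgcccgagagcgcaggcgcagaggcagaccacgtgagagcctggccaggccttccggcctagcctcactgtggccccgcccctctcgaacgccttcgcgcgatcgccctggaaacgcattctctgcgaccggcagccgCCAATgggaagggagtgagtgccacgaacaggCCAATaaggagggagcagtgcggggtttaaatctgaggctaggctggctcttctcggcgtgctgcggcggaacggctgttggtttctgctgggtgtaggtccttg
NUF2: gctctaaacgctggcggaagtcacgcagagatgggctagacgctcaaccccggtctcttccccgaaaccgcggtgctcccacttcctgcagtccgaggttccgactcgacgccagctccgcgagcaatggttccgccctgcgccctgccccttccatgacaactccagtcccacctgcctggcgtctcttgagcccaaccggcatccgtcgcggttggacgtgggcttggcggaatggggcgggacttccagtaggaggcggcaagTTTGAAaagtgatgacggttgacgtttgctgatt
CDKN1A: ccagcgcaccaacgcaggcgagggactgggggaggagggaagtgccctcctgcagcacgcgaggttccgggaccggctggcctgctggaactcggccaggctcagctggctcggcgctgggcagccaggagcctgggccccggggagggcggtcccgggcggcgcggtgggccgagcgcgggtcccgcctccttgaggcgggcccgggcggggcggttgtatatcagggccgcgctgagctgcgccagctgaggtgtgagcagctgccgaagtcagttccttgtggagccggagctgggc

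Genes of DNA replication and repair followed the same course. All 50 replication and G1/S genes fell at 72 h and all 50 were higher at day 14 than at 72 h, where all tested genes gave 17.9% and 17.3%. At day 14 against untreated 0 were called and the median was -0.16, with -0.00 in replicate B and -0.26 in replicate C. Of the 50 genes 1 was lower at an unadjusted p under 0.05 (4.25% of all tested genes were), DNMT1, the maintenance DNA methyltransferase gene. MCM10, a replication initiation gene, had 157 and 139 CPM at day 14, against 166 and 188 CPM untreated. RRM2, a ribonucleotide reductase gene, had 429.5 and 327 CPM against 473 and 525 CPM, and E2F1, a transcription factor of S phase entry, had 20.1 and 13.5 CPM against 18.0 and 20.0 CPM. LMNB1, which encodes lamin B1 and falls in senescent cells, had 306 and 294 CPM against 392 and 366 CPM, both lower (-0.34 ± 0.31, interval -0.99 to 0.32). Of 25 homologous recombination and Fanconi genes 24 had fallen at 72 h, and their day 14 median was -0.15 (0.01 in replicate B and -0.25 in replicate C). In both lists the lower median came with replicate C. Both day 14 libraries were below both untreated ones in 23 of the 50 replication genes and above in 7. For the 25 recombination genes this was 7 and 1. All tested genes gave 23.7% and 21.9%.

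Replication-dependent histone genes, short intronless genes read in S phase, stood above untreated cells. Of 57 tested genes 55 fell at 72 h and 56 were higher at day 14 than at 72 h, where all tested genes gave 17.9% and 17.3%. At day 14 against untreated 0 were called, 3 were higher at an unadjusted p under 0.05 (4.17% of all tested genes were), and the median was 0.36 (0.50 in replicate B and 0.19 in replicate C). In 39 of 57 both day 14 libraries were above both untreated ones, where all tested genes gave 21.9%, and 51 of 57 fold changes were positive. HIST1H4L had 222 and 208 CPM at day 14, against 160.0 and 173 CPM untreated (0.37 ± 0.46). HIST1H1B had 600.0 and 636 CPM against 429 and 501 CPM (0.41 ± 0.56). It had 2.80 and 28.6 CPM at 72 h, and that spread also enters its standard error. HIST1H3H, chosen after its values were seen, had 55.4 and 45.8 CPM against 31.0 and 34.3 CPM (0.63 ± 0.25, edgeR adjusted p = 0.523). Histone genes are near-identical copies, so the counts of single members are uncertain.

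Transcript length and a list of structured RNAs moved with the same comparison. For 9238 of the 10058 genes at 5 CPM or more (91.8%), a longest transcript was found in GENCODE release 29. In 5 bins of that length with about equal numbers of genes, from short to long, the median day 14 fold change was 0.13, 0.01, -0.05, -0.10 and -0.16. The shortest bin, up to 2300 bases, had both day 14 libraries above both untreated ones in 41.6% of genes, and the longest bin, from 6272 bases, in 10.2%. Over the same bins the 72 h median was -0.07, -0.08, -0.07, -0.02 and 0.01. The histone genes had a median length of 488 bases, the G2 and mitosis genes 2964 and the p53 targets 3453 bases. Other short-gene families, picked by symbol after the values were seen, also had positive medians, with the replicates apart in size or sign. Cytosolic ribosomal protein genes had a median of 0.27 over 79 genes (0.09 in replicate B and 0.46 in replicate C), and respiratory chain subunit genes 0.27 over 79 genes (0.20 in replicate B and 0.33 in replicate C). Small nucleolar RNAs had 0.23 over 205, with -0.01 in replicate B and 0.44 in replicate C.

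The RNA-quality list, named for the structured and mitochondrial ribosomal RNAs it was built from, had 6 tested members of 12 listed, with a median of 1.14 (0.73 in replicate B and 1.26 in replicate C). RMRP, the RNA of RNase MRP, had 3492 and 4200.1 CPM at day 14, against 1675 and 1926 CPM untreated (1.09 ± 0.32). RPPH1, the RNA of RNase P, had 1584 and 2262 CPM against 845 and 857 CPM (1.18 ± 0.35). Levels of both were also above the untreated ones at 72 h, where RMRP had 3054 and 4161 CPM and RPPH1 1957 and 2199.8 CPM. The part of length or of these RNAs in the histone and p53 medians was not tested.

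CCND1 was below its untreated level. This gene encodes cyclin D1, the partner of CDK4 and CDK6 in G1. It had 114 and 109.6 CPM at day 14, against 296 and 166 CPM untreated, without overlap, and the untreated libraries differed between themselves by more than the day 14 ones. The difference was -1.04 ± 0.25 (interval -1.58 to -0.51, edgeR unadjusted p = 0.00089, adjusted p = 0.302). At 72 h it had risen, to 741 and 567 CPM, by 1.50 ± 0.25 (edgeR adjusted p = 0.000314), and at day 8 it had 245 and 193 CPM. Day 14 minus 72 h was -2.54 ± 0.25 (edgeR adjusted p = 4.96e-06).

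The genes that differed most by p at day 14 were taken as the 10 per direction with the smallest unadjusted p among those at 5 CPM or more, at least 2-fold apart and without overlap. They are a description, since these values chose them. In total, 54 genes met the rule in the higher direction (0.537%) and 40 in the lower (0.398%). DESeq2's Wald test called 18 of the 20 named genes at an adjusted p under 0.05, all but FOSL1 and KIFC3. It used the same counts that chose the genes, so its calls are not independent of the choice. Without day 14 replicate B edgeR called 12 of the 20, and with all libraries it called none.

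Higher genes were THSD7A, LRRN3, CNTN1, SERPINI1, IGFBP5, GLT8D2, SNORA26, PNRC1, MAB21L1 and FAP. In all 10, replicate C was above replicate B at day 14. THSD7A, a thrombospondin-domain membrane gene, had 6.97 and 16.4 CPM at day 14, against 2.24 and 0.694 CPM untreated (3.00 ± 0.43, edgeR adjusted p = 0.0529). At day 8 it had 107 and 120.2 CPM, so the day 14 level lay between. SERPINI1, which encodes the neuronal serine protease inhibitor neuroserpin, had 15.3 and 66.7 CPM against 5.02 and 2.27 CPM (3.50 ± 0.70, edgeR adjusted p = 0.215), and 120.1 and 119 CPM at day 8. IGFBP5, a secreted binding protein of insulin-like growth factors, had 22.4 and 102 CPM against 7.80 and 12.5 CPM (2.61 ± 0.55), and 222 and 172 CPM at day 8. CNTN1, an adhesion gene of neurons, had 41.0 and 90.5 CPM against 24.4 and 26.4 CPM (1.37 ± 0.27). FAP, a cell-surface protease gene of fibroblasts, had 54.9 and 113 CPM against 41.4 CPM in both untreated libraries (1.02 ± 0.25). SNORA26 can share reads with its host gene and is uncertain.

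TGFA, the transforming growth factor alpha gene, whose product activates the receptor EGFR, lay under the level the rule asked for. It had 3.69 and 7.75 CPM at day 14, against 0.926 and 0.463 CPM untreated, from 63 and 154 counts against 19 and 10. The difference was 3.05 ± 0.50 (interval 1.99 to 4.11, edgeR unadjusted p = 8.3e-06, adjusted p = 0.0614). It had been at 186 and 199 CPM at 72 h and at 59.8 and 30.1 CPM at day 8. Day 14 minus 72 h was -5.06 ± 0.35 (edgeR adjusted p = 7.99e-07).

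Lower genes were PLEC, SPOCK1, CDH13, DGKB, ODZ2, BCAR3, CCND1, FOSL1, PODXL and KIFC3. In 9 of these 10, all but SPOCK1, replicate C was below replicate B at day 14. PLEC, which encodes the cytoskeletal linker plectin, had 192 and 147 CPM at day 14, against 371 and 337 CPM untreated (-1.06 ± 0.18, edgeR adjusted p = 0.09). It was at 598 and 667 CPM at 72 h and at 264 and 203 CPM at day 8. CDH13, which encodes T-cadherin, had 19.4 and 11.5 CPM against 46.4 and 42.1 CPM (-1.52 ± 0.29), and 131 and 134 CPM at 72 h. SPOCK1, an extracellular proteoglycan gene, had 21.2 and 24.6 CPM against 56.1 and 43.5 CPM (-1.12 ± 0.21), and 202 and 230 CPM at 72 h. FOSL1, an AP-1 transcription factor gene, had 29.4 and 16.7 CPM against 128 and 40.5 CPM (-1.87 ± 0.46). Here, as for CCND1, untreated replicate B was well above untreated replicate C.

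**Figure D4:**
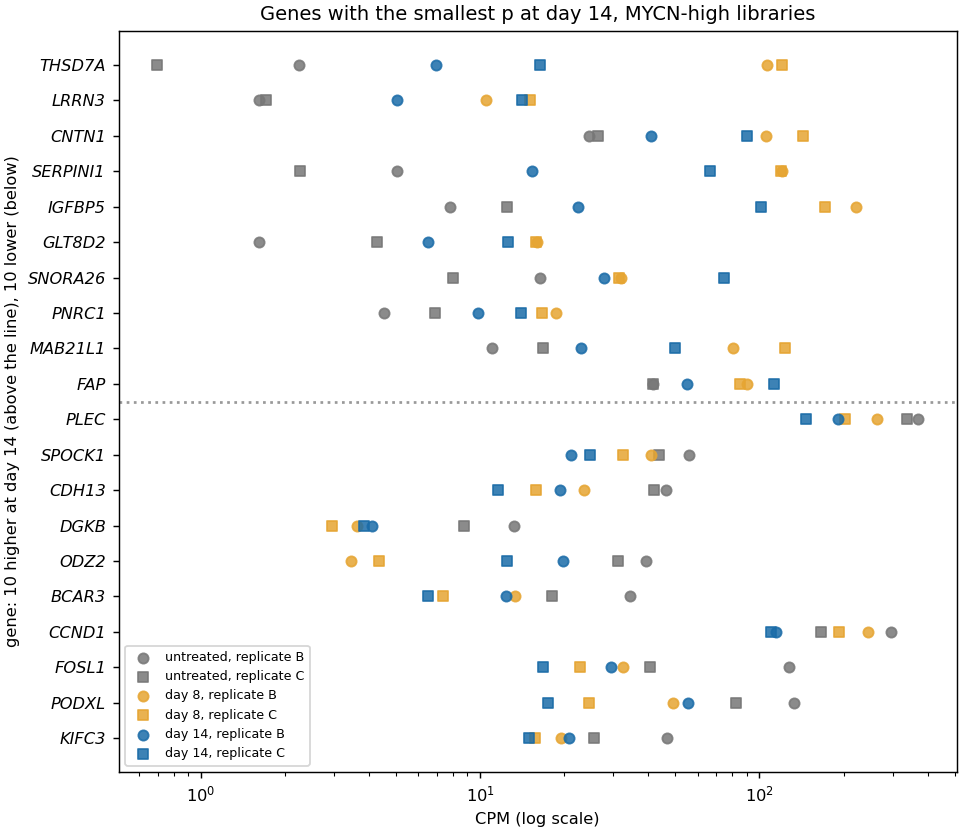
Level in each library (CPM, log x axis) of the 10 genes higher and the 10 lower at day 14 by the rule in the text, for untreated (grey), day 8 (yellow) and day 14 (blue) MYCN-high libraries, circles for replicate B and squares for C. In all 10 higher genes day 14 replicate C lies right of replicate B; THSD7A has 6.97 and 16.4 CPM at day 14 and 107 and 120.2 CPM at day 8.

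Secreted and matrix genes were mixed, and the differences from untreated went apart between the replicates. The untreated libraries had a part in this. The secretory senescence list had means of 1.84 and 1.09 log2 CPM in untreated replicates B and C, and 1.26 and 1.59 at day 14. The secretory senescence list had 37 tested genes, of which 16 had risen at 72 h, where 18.3% of all tested genes had. At day 14 against 72 h, 17 were lower and 3 higher, where all tested genes gave 18.3% and 17.3%. At day 14 against untreated 0 were called. The median was -0.22, with -0.59 in replicate B and 0.17 in replicate C. At an unadjusted p under 0.05, 5 genes were higher and 4 lower, where all tested genes gave 4.17% and 4.25%. Past 2-fold lay 19 of the 37, where all tested genes gave 5.25% higher and 3.63% lower. The 95% interval lay within 2-fold for 4 of the 37, so most were poorly measured. IGFBP3, another growth factor binding protein, had 24.1 and 94.1 CPM at day 14, against 19.9 and 9.35 CPM untreated (2.02 ± 0.51). The urokinase gene PLAU had 4.86 and 4.43 CPM against 17.8 and 6.57 CPM (-1.39 ± 0.64), and its receptor PLAUR had 7.84 and 5.54 CPM against 26.3 and 8.88 CPM (-1.40 ± 0.39). MMP10, a matrix protease, had 0.41 and 0.504 CPM against 3.70 and 1.02 CPM (-2.34 ± 0.83). These 4 genes were chosen after their values were seen. In PLAU, PLAUR and MMP10 untreated replicate B was well above untreated replicate C.

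The 34 matrix and mesenchymal genes had a median of -0.19. At an unadjusted p under 0.05, 3 were higher and 2 lower, where all tested genes gave 4.17% and 4.25%. LUM and DCN, small proteoglycan genes of the matrix, were among the higher. LUM had 144 and 326 CPM at day 14, against 99.5 and 83.7 CPM untreated (1.36 ± 0.43), and DCN had 17.7 and 54.8 CPM against 14.8 and 9.95 CPM (1.56 ± 0.68). COL4A2, a basement membrane collagen gene, had 136 and 112 CPM against 240.0 and 184 CPM (-0.78 ± 0.33). All 3 were chosen after their values were seen, and in LUM and DCN the larger part of the difference was in replicate C. VCAM1, an adhesion gene of the NF-kappaB list, had 10.9 and 51.8 CPM against 13.0 and 12.2 CPM, with replicate B under and replicate C above the untreated level (1.32 ± 0.45). The 19 tested NF-kappaB targets had a median of -0.10, with -0.46 in replicate B and 0.14 in replicate C. Their means were 1.90 and 1.32 log2 CPM in untreated replicates B and C, and 1.52 and 1.68 at day 14.

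**Figure D5:**
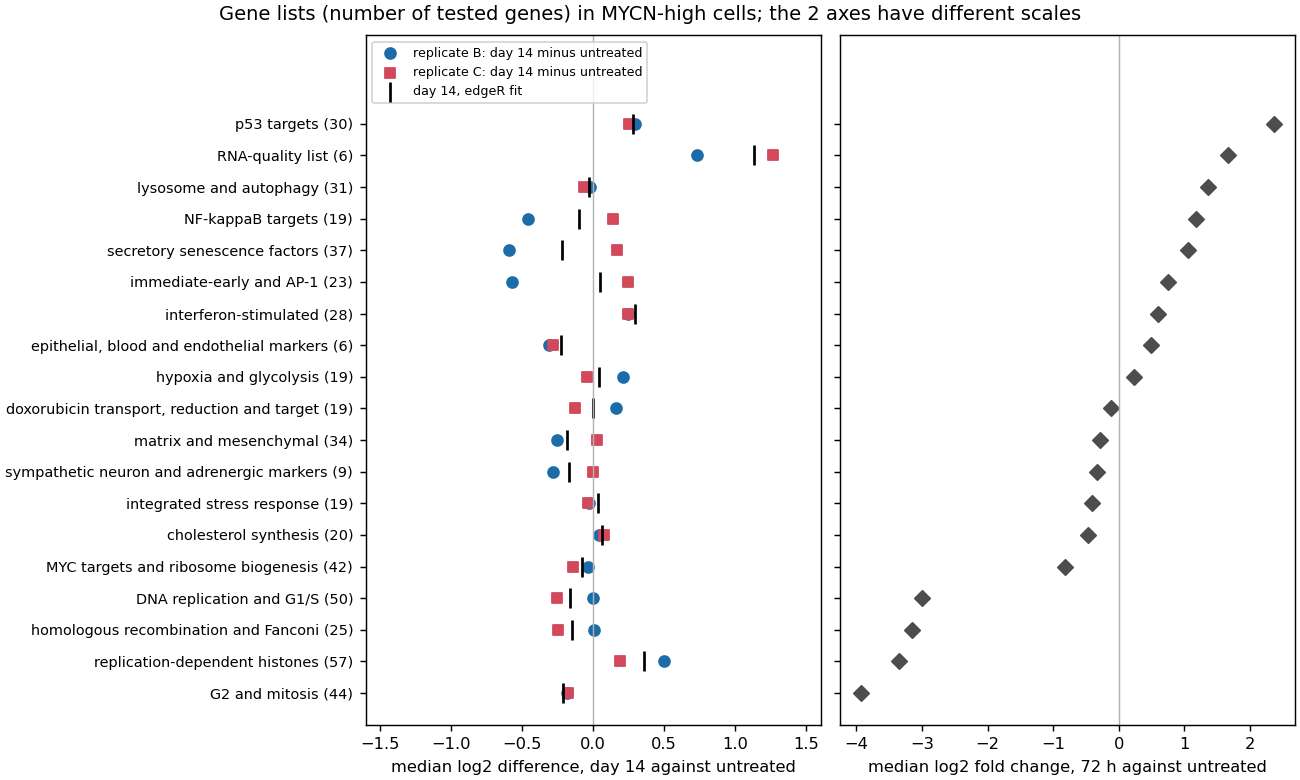
Median log2 difference of the genes of each list (rows, number of tested genes in brackets). The left panel gives day 14 against untreated as the edgeR fit (black bar) and in replicates B (blue circles) and C (red squares), and the right panel gives 72 h against untreated (grey diamonds) on a wider scale. At day 14 the lists lie between -0.23 and 1.14 in the fit, where G2 and mitosis has -0.21, against -3.94 at 72 h.

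The remaining lists are given by their medians. Interferon-stimulated genes had a median of 0.30 over 28 genes (0.25 in both replicates). At an unadjusted p under 0.05, 4 were higher, where all tested genes gave 4.17%. Among them was STAT2, a signal transducer of interferon receptors (17.0 and 21.1 CPM at day 14, against 11.0 and 12.4 CPM untreated, 0.70 ± 0.21). Of 31 lysosome and autophagy genes 24 had risen at 72 h, where 18.3% of all tested genes had. Their day 14 median was -0.03, and 0 had an unadjusted p under 0.05. PSAP, the precursor of the saposins, had 406 and 499 CPM against 469 and 468 CPM. Cholesterol synthesis genes had a median of 0.06 over 20 genes, and ACAT2 had 56.5 and 57.7 CPM against 54.7 and 56.7 CPM. Of 42 genes of MYC targets and ribosome biogenesis 29 had fallen at 72 h, where 17.9% of all tested genes had. Their day 14 median was -0.08. In 19 of the 42 both day 14 libraries were below both untreated ones and in 5 above, where all tested genes gave 23.7% and 21.9%. At an unadjusted p under 0.05, 5 were lower and 0 higher, where all tested genes gave 4.25% and 4.17%. Of these the nucleolar genes UTP20, DDX21 and RRP12 had fold changes of -0.49 ± 0.19, -0.49 ± 0.18 and -0.59 ± 0.15. Hypoxia and glycolysis genes had a median of 0.04, and integrated stress response genes 0.04. Immediate-early and AP-1 genes had 0.04 (-0.57 in replicate B and 0.25 in replicate C). Their means were 2.12 and 1.51 log2 CPM in untreated replicates B and C, and 1.62 and 1.98 at day 14. The 9 tested sympathetic neuron and adrenergic markers had a median of -0.17, and the 6 tested epithelial, blood and endothelial markers -0.23.

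Levels of the doxorubicin exporter overlapped between the groups. ABCB1, the P-glycoprotein gene, had 104 and 109 CPM at day 14, against 104 and 109 CPM untreated (-0.00 ± 0.33, interval -0.70 to 0.70). The 19 genes of doxorubicin transport, reduction and target had a median of -0.00, with 0.16 in replicate B and -0.13 in replicate C. OXTR, the oxytocin receptor gene, one of the genes that fell most at 72 h, had 26.2 and 8.36 CPM at day 14, against 41.9 and 16.7 CPM untreated, overlapping (-0.77 ± 0.48). PLAT, the tissue plasminogen activator gene and one of those that rose most at 72 h, had 17.6 and 103 CPM against 13.3 and 11.8 CPM, so replicate B was close to and replicate C far above the untreated level.

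Drug response genes can be chosen on libraries that are not in the day 14 comparison, from MYCN-low cells at 72 h against untreated MYCN-low cells. That comparison called 3305 genes (22.3%), 1516 higher (10.2%) and 1789 lower (12.1%). The 1516 risers had a median day 14 fold change of 0.07 in MYCN-high cells (0.02 in replicate B and 0.08 in replicate C), beside -0.01 over all tested genes. Of them 152 (10%) were higher and 40 (2.64%) lower at an unadjusted p under 0.05, where all genes gave 4.17% and 4.25%. The 1789 that fell had a median of -0.08 (-0.05 in replicate B and -0.12 in replicate C), with 38 (2.12%) higher and 106 (5.93%) lower. Among the 249 that rose at least 4-fold (1.68% of tested genes) the median was 0.34 (0.09 in replicate B and 0.31 in replicate C), 69 (27.7%) were at least 2-fold higher and 20 (8.03%) at least 2-fold lower, where all genes gave 5.25% and 3.63%. The 95% interval lay within 2-fold in either direction for 16 of the 249 (6.43%), against 60% of all tested genes. No CPM minimum was set here, and the count filter also passes genes counted mainly in drug-treated groups. The 2-fold shares of the 249 and of all genes are therefore not like for like. Among the 492 that fell at least 4-fold (3.33%) the median was -0.09. In MYCN-high cells at 72 h the risers had a median of 0.72 and the genes that fell one of -0.98, against the same untreated libraries as at day 14.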

How the data were processed

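RNA was taken from cells, spiked with ERCC RNAs, depleted of ribosomal RNA and made into libraries with the ScriptSeq kit, per the labels' protocols, while the molecule field says polyA RNA. The deposited table holds whole read counts per gene symbol in 19 libraries, 23459 lines with 92 for ERCC RNAs. STAR 2.4.0h1, HTSeq and hg19 come from the submitters' processing notes. The annotation, strand setting and filters are not given in the sources used here.

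Counts were fitted in R 4.3.3 with edgeR 4.0.16. ERCC lines were left out (0.0736% to 0.537% of counts in the 4 libraries), 14793 genes of 23367 passed filterByExpr, TMM scaling was used, and the quasi-likelihood model, with a coefficient for each of 10 groups, left 9 residual degrees of freedom. Sharing the spread over all groups was used because groups hold at most 2 libraries. MYCN-low cells at day 14 have replicate B only. P-values were adjusted by the Benjamini-Hochberg method over all tested genes, with a threshold of 0.05. DESeq2 by default leaves genes of low mean count out of its adjustment, so its calls rest on fewer genes. Its shares are still given over all 14793. Intervals are 95% intervals of the fit, and they cover the spread between libraries only. Differences within a replicate are log2 CPM with a prior count of 2. The procedure was tested on simulated data. Alternatives were DESeq2 1.42.0, limma 3.58.1 with voom, no filter, a replicate block, ERCC scaling, fewer groups in the fit and leaving out each library. Named genes are 27 panel genes, up to 10 per direction by p with the limits given in the text, the 10 per direction with the largest change at 72 h and up to 4 per list by 72 h change, of which some are given. IL6, at or under 0.302 CPM, gets no fold change. The comparison, the members and the 19 lists were chosen with earlier results of these data known. Python 3.11.15 with matplotlib 3.10.9 drew the figures.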

Additional observations from a re-analysis of the deposited data

How the results depend on the processing

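The day 14 count of 0 became 68 with DESeq2's Wald test, 309 (159 higher, 150 lower) with no filter on low counts and 5 with the replicate letter as a block, and it ranged from 0 to 39 when 1 library was left out. The 5 genes under the block were TGFA, THSD7A, PLEC, CDH13 and MYO10. The labels do not say that the letters mark a shared origin. The B minus C differences correlated by 0.121 between the day 14 and untreated groups, across genes. Over all 10 pairs of MYCN-high groups the correlations were 0.101 to 0.217. What the libraries of 1 letter share was not tested. DESeq2 size factors, voom, ERCC scaling, MYCN-high libraries alone and the 4 libraries alone gave 0. For the MYCN-low count at 72 h, leaving out 1 library gave 1806 to 4755 and the groups alone 1249. ERCC scaling put the median day 14 fold change of all genes at -1.07 and lowered the 72 h counts to 70 in MYCN-high and 60 in MYCN-low cells, with medians of 0 and -1.21 for the genes that rose and fell in MYCN-low cells. The median of the risers was 0.21 with the groups alone and 0.0249 (without day 14 replicate C) to 0.109 when 1 library was left out. The cause of these shifts was not tested.

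Under ERCC scaling, signs turned for CDKN1A (-0.31), MDM2 (-0.88), GDF15 (-0.60), BBC3 (-0.18), BAX (-0.77), FAS (-0.65), FDXR (-0.27), EDA2R (-0.36), CCNG1 (-0.45), TP53I3 (-0.47), TXNIP (-0.85), MYC (-0.97), IL8 (-1.64), VCAM1 (-0.44), CNTN1 (-0.016), PNRC1 (-0.017), FAP (-0.36), STAT2 (-0.41), IFI44 (-0.059), LUM (-0.12), DCN (-0.13), RPPH1 (-0.033) and HIST1H3H (-0.32), of which IL8 alone went below that median. With voom IL8 was -0.037. With MYCN-high libraries alone and with the groups alone CCNB1 was 0.0030 and 0.0029 and ABCB1 0.020 in both. Without 1 library, values ran from -0.134 to 0.303 for MDM2, -0.0787 to 0.0576 for CCNB1, -0.0244 to 0.0331 for ABCB1, -0.485 to 0.0942 for E2F1, -0.0463 to 0.552 for TXNIP, -0.0559 to 1.26 for MYC, -0.941 to 0.653 for IL8, -0.195 to 2.04 for VCAM1, -0.117 to 0.00483 for XPC and -1.81 to 0.0562 for OXTR. A library left alone in its group takes its spread from the other groups. Depth limits genes of few counts, whose intervals are wide.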
